A study of Mus musculus with 8 samples.

Results

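The genes described here encode the receptors through which serotonin, dopamine, noradrenaline, adrenaline and acetylcholine act on cells. They were chosen by symbol, as every name of the form Htr, Drd, Adra, Adrb, Chrm or Chrn followed by a subtype number or letter, with the D2 receptor gene Drd2 left out, from the count files of a mouse prefrontal cortex study. The choice gave 48 of 23393 named genes. There were 14 serotonin receptor genes (Htr), 4 dopamine receptor genes (Drd1a, Drd3, Drd4 and Drd5, of which Drd1a is the older symbol of Drd1), 9 adrenergic receptor genes (Adra and Adrb), 5 muscarinic acetylcholine receptor genes (Chrm) and 16 nicotinic acetylcholine receptor subunit genes (Chrn). In none of the comparisons did a receptor gene pass an adjusted p of 0.05 in edgeR's quasi-likelihood test, and the values below are therefore given as levels and differences with their errors.

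Serotonin, dopamine, noradrenaline and acetylcholine reach the prefrontal cortex mostly along the axons of neurons whose cell bodies lie in the brainstem, midbrain and basal forebrain, so that the cortex holds the receptors more than the transmitter-making enzymes. Most of these receptors are G protein-coupled: Gs receptors raise cyclic AMP, Gi/o receptors lower it and open potassium channels, and Gq/11 receptors activate phospholipase C. The nicotinic receptors and the serotonin receptors Htr3a and Htr3b are instead ligand-gated ion channels built of several subunits. In prefrontal cortex these systems are known for their part in arousal, attention and working memory, and several are targets of psychiatric drugs. Of the 48 genes, 13 encode Gi/o-coupled receptors, 9 Gq/11-coupled receptors, 8 Gs-coupled receptors and 18 channel subunits.

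Bulk tissue lysates of the prefrontal cortex of C57BL6/J mice aged 6 to 8 weeks, all injected with adeno-associated virus of serotype 9 (AAV9), gave 8 libraries in 4 groups of 2. Animals given a virus titled as Adnp knockdown by short hairpin RNA (shAdnp) have their own pair of controls given a virus with green fluorescent protein (GFP), here the Adnp-set controls. Animals titled as Pogz knockdown (shPogz) likewise have the Pogz-set controls. The proteins encoded by Adnp and Pogz bind chromatin, both genes carry risk for neurodevelopmental disorders, and the title of the series asks about a mechanism that they share. For both knockdown groups the treatment label gives a hairpin against ASH1L in place of the gene in the title, and the design text counts 3 knockdown mice against 2 controls, while 2 libraries a group were analysed here. The promoter of the virus and the cells that took it up are not stated in the labels, and a bulk lysate can mix cells that did and did not receive a hairpin. Within each group, values are given in the order replicate 1, replicate 2.

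The number of counts in named genes lay between 27501722 and 69002749 a library, of which the 48 receptor genes held 21782 to 52520. The ribosomal RNA precursor Rn45s took 7.62% of shAdnp replicate 1 and 0.134% to 0.740% of the other libraries. Levels are given as CPM, counts divided by the scaled library size. Adnp stood at 137 and 111 CPM in the Adnp-set controls and at 87.2 and 118 CPM in shAdnp, a log2 difference of -0.27 (SE 0.19, adjusted p = 0.768 in edgeR), and the groups overlap. Pogz stood at 54.4 and 53.1 CPM in the Pogz-set controls and at 49.0 and 37.3 CPM in shPogz, a log2 difference of -0.32 (SE 0.16, adjusted p = 0.667 in edgeR), and the groups do not overlap. The targeted genes thus passed no test, and the group names below are those of the titles.

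The receptor genes covered a wide range of levels. On the scale of CPM per kilobase of exon, averaged over the 8 libraries, 12 of the 48 stood at 5 or more, 13 from 1 to below 5, 13 from 0.1 to below 1 and 10 below 0.1. Chrm1, the main Gq/11-coupled muscarinic receptor of cortical pyramidal neurons, averaged 23.8 ± 3.31 CPM per kilobase (SD over 8 libraries), and Chrm3, another Gq/11-coupled receptor, 10.4 ± 1.82. The other muscarinic genes were spread over the whole order, with Chrm2 at 1.96 and Chrm5 at 0.0997. Chrm4, a Gi/o-coupled receptor, came out at 28.4 ± 4.0, but its GENCODE gene model holds 3 untranslated bases. If the authors counted over a longer model, this length scaling is too high for comparison with genes whose whole transcript is annotated. The same holds for Chrm5, also with 3, and to a lesser degree for Adra1d, with 213 untranslated bases of 1899. Above 8 CPM per kilobase there also stood the alpha-1 adrenergic receptor gene Adra1d (14.9 ± 3.45), the nicotinic subunit genes Chrnb2 (8.83 ± 0.440) and Chrna4 (8.46 ± 1.29), whose products together form the common high-affinity nicotinic receptor of the brain, and Htr2a (8.66 ± 2.22). Neighbours in this order from Chrnb2 down to Drd1a (7.94 ± 2.54) lie within each other's spread over libraries.

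**Figure D1:**
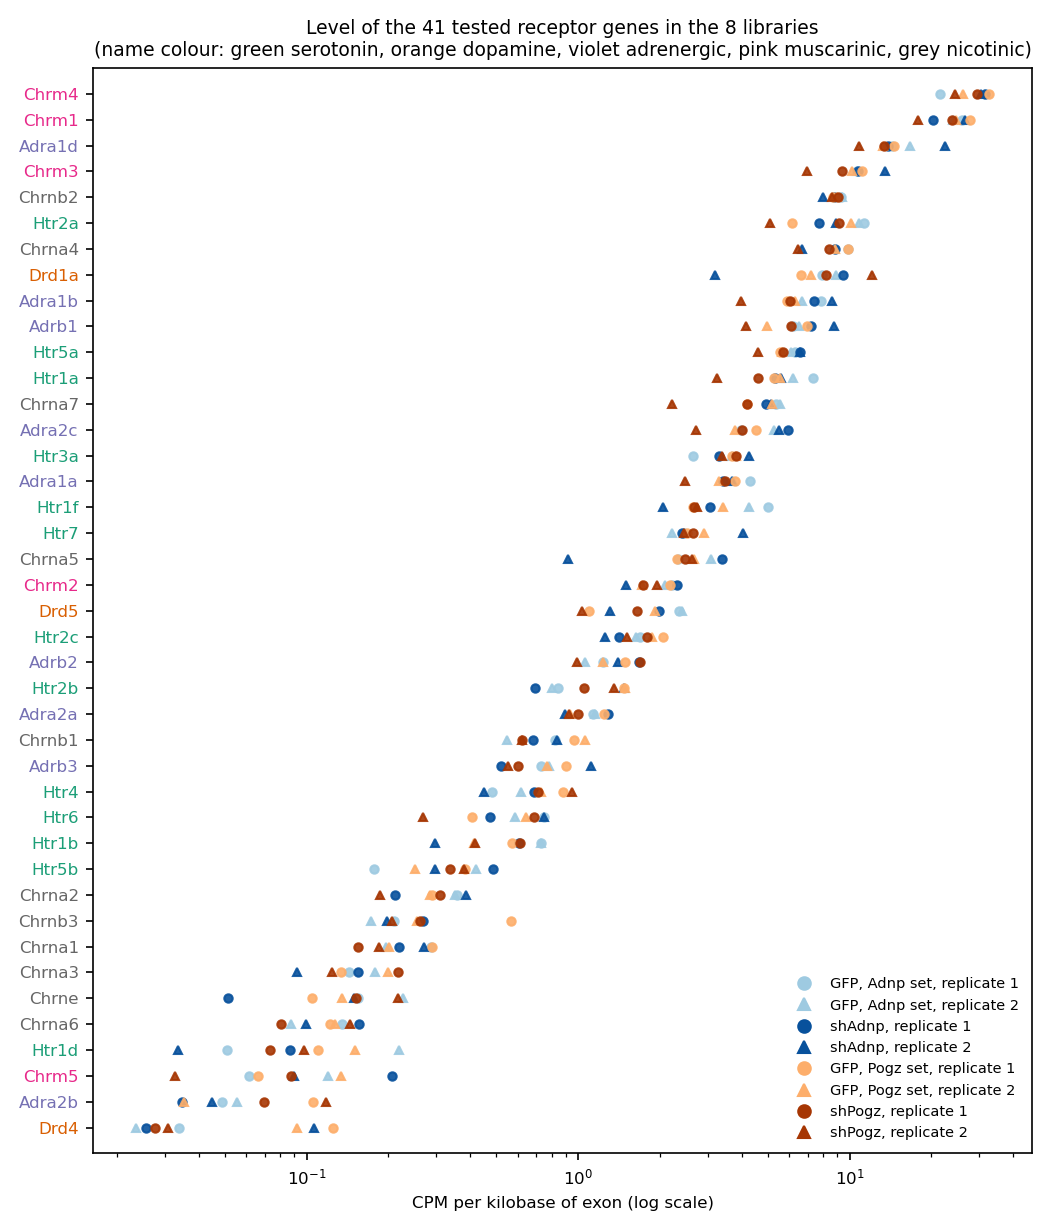
Level of each of the 41 tested receptor genes in each library, in CPM per kilobase of exon on a log axis, with circles for replicate 1 and triangles for replicate 2 of each group. Chrm4 and Chrm1 stand at the top and Drd4 at the bottom, and the dark blue triangle of shAdnp replicate 2 stands far to the left of the others for Drd1a and Chrna5.

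A total of 7 genes did not pass the low count filter, namely Chrna9, Chrna10, Chrnb4, Chrnd, Chrng, Drd3 and Htr3b, which had 0 to 8 counts in any library. They could be neither tested nor called absent. Chrnd and Chrng, subunits of the muscle receptor, and Chrna9, an inner ear subunit, were among them. Genes that lie beside each other differed widely in level. On chromosome 9, Chrna5 (54980880 to 55007779) averaged 2.48 CPM per kilobase, Chrna3 (55010111 to 55026562) 0.156 and Chrnb4 (55028154 to 55048779) 0.0131. The neighbours Htr3a and Htr3b, also on chromosome 9, averaged 3.57 and 0.00628 CPM per kilobase.

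Across the 41 tested receptor genes the shPogz group stood below its controls more often than the shAdnp group did. The median log2 difference was -0.20 in shPogz, where it was -0.02 over all 17415 tested genes, and -0.06 in shAdnp, where it was -0.01 over all genes. In shPogz 32 of the 41 (78.0%) had a log2 difference below 0, against 53.6% of all tested genes. In shAdnp 21 of the 41 did (51.2%), against 52.3% of all genes. The 9 tested Gq/11-coupled receptor genes were all below 0 in shPogz, with a median of -0.28, and 4 of the 9 were below 0 in shAdnp. In shPogz it was 8 of 9 without shPogz replicate 2 or without Pogz-set control replicate 2. Of the other classes, 9 of 12 Gi/o-coupled, 6 of 8 Gs-coupled and 8 of 12 channel subunit genes were below 0 in shPogz. Without shPogz replicate 2 these were 8 of 12, 3 of 8 and 8 of 13. In bulk tissue, fewer cells of a type and less RNA per cell cannot be told apart. These counts are descriptions, since the genes are not independent replicates and no test was made over the list.

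Gene by gene, the edgeR test called none of the 41 at an adjusted p of 0.05 in shAdnp (0.0% of all tested genes were called) or in shPogz (0.0%). At an unadjusted p under 0.05 the shAdnp group had 0 receptor genes higher, where 6.67% of all genes were, and 1 lower (Htr1f, 2.44% of the 41), where 1.69% of all genes were. The shPogz group had 0 receptor genes higher, where 4.05% of all genes were, and 3 lower (Chrm3, Chrnb1 and Htr1a, 7.32% of the 41), where 2.65% of all genes were. Limma-voom also called 0 receptor genes in each set, with 3 (7.32%) and 4 (9.76%) at an unadjusted p under 0.05, where 9.42% and 5.91% of all genes were. DESeq2, which called 420 genes in shAdnp (2.41% of all tested) and 100 in shPogz (0.574%), called 1 receptor gene, Htr1f, in shAdnp, and 0 in shPogz.

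Groups that do not overlap were common among all genes, because 2 libraries stand against 2. Both shAdnp libraries were above both controls for 5 of the 41 receptor genes (12.2%), against 20.4% of all genes, and below both for 11 (26.8%), against 21.0%. Both shPogz libraries were above both controls for 2 (4.88%), against 19.0%, and below both for 11 (26.8%), against 21.3%. In both sets at once, 0 receptor genes had every knockdown library above its controls, where 7.12% of all genes did, and 2 (Htr1a and Htr2c, 4.88%) had every knockdown library below, where 5.31% of all genes did. Those shares of genes below both controls lie near the background.

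**Figure D2:**
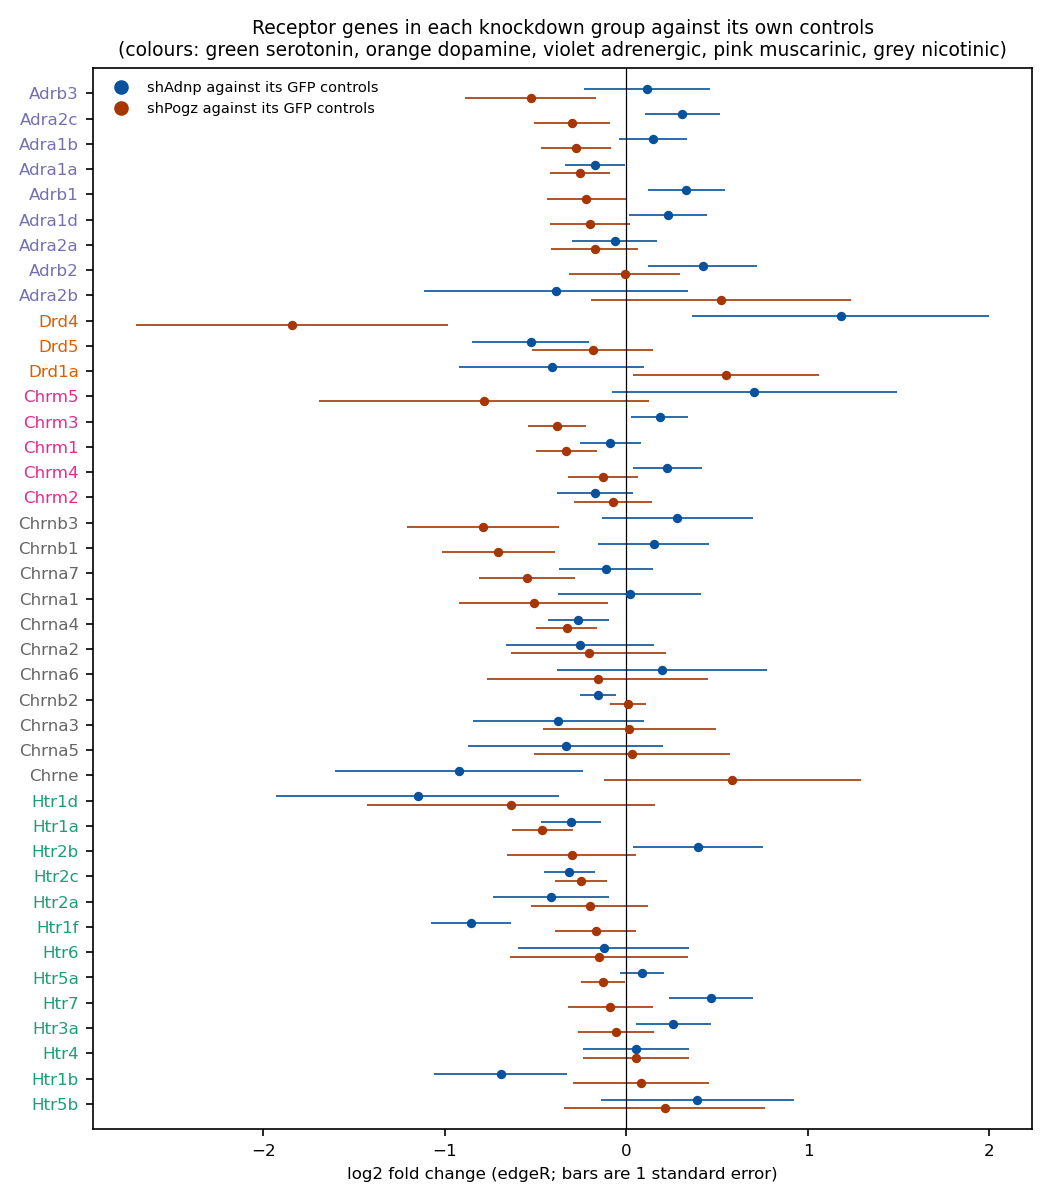
Log2 fold change of each tested receptor gene in shAdnp (blue) and shPogz (brown) against its own GFP controls, as edgeR estimates with bars of 1 standard error, grouped by family. Most brown points lie left of 0, 32 of 41, while the blue points lie on both sides, and the longest bars belong to genes of few counts such as Drd4 and Chrm5.

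Among the serotonin receptors, Htr1f and Htr1a had the smallest p-values. Both are Gi/o-coupled. Htr1a is an inhibitory receptor of pyramidal neurons and of serotonin neurons themselves, and Htr1f is a receptor targeted by migraine drugs. Htr1f (chromosome 16, 64924729 to 65105854, minus strand) stood at 13.0 and 11.0 CPM in the Adnp-set controls, 7.91 and 5.29 in shAdnp, 6.83 and 8.78 for the Pogz-set controls, and 6.90 and 7.05 in shPogz. The Adnp-set controls were thus the high group, and the 6 other libraries lay below both of them. The log2 difference was -0.86 (SE 0.22) in shAdnp, with an unadjusted p of 0.00328 and an adjusted p of 0.306 in edgeR. DESeq2 gave -0.85 and an adjusted p of 0.0296 for the same comparison. With each library left out in turn, the log2 difference in edgeR ran from -1.16 to -0.59. The Pogz-set controls, which received no hairpin, differed from the Adnp-set controls by -0.61 (SE 0.22, unadjusted p = 0.0205, adjusted p = 0.672 in edgeR).

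Htr1a (chromosome 13, 105443639 to 105448122, plus strand) stood at 32.8 and 27.7 CPM in the Adnp-set controls, 23.8 and 25.1 in shAdnp, 23.6 and 24.9 for the Pogz-set controls, and 20.6 and 14.5 in shPogz. Each knockdown library was below both of its controls, yet the shAdnp libraries were level with the Pogz-set controls. The log2 difference was -0.31 (SE 0.17) in shAdnp and -0.46 (SE 0.17) in shPogz, with unadjusted p-values of 0.0959 and 0.0213 and adjusted p-values of 0.697 and 0.667 in edgeR. With each library left out in turn, the log2 difference in shPogz ran from -0.70 to -0.23, the latter without shPogz replicate 2. Its unadjusted p was no longer under 0.05 without either Pogz-set control or without shPogz replicate 2.

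Promoter sequence is shown for Htr1f and Htr1a, the receptor genes with the smallest p-values in shAdnp and over both sets. Each run is 300 bases from RefSeq, build GRCm38.p6, from 250 bases before to 50 after the annotated start, written 5′ to 3′ on the gene's strand. Capitals mark the GC box GGGCGG, which Sp-family factors bind, or its reverse complement CCGCCC. The Htr1f window is chr16:65105735-65106034 on the minus strand and the Htr1a window is chr13:105443443-105443742 on the plus strand.
Htr1f: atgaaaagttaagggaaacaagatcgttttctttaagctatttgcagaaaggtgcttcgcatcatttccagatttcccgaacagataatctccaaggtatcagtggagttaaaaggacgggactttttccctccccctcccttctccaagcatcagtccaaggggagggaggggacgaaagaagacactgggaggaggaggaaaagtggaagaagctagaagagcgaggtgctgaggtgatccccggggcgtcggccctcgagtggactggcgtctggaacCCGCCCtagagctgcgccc
Htr1a: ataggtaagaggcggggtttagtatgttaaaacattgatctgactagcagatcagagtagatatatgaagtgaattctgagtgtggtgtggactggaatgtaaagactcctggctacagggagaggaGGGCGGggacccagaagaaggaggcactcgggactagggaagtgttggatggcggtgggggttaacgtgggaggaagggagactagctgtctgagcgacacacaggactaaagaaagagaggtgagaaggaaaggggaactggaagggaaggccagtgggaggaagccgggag
Each window holds 1 such match. RefSeq windows were found for 36 of the 48 receptor genes, with 41 start sites. The GC box was present in 22 of the 41 (53.7%) and in 35.7% of 32851 windows of the same length. The TATA box letters TATAAA, searched on both strands and unable to overlap the GC box letters, were present in 2 of the 41 (4.88%) and in 13.6% of all windows. A match is a description of the letters, not a site in use.

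The other serotonin receptor genes with high levels differed in how closely their libraries matched. Htr2a, the Gq/11-coupled receptor through which psychedelic drugs act, stood at 63.5 and 60.9 CPM in the Adnp-set controls, 43.2 and 49.9 in shAdnp, 34.4 and 56.8 for the Pogz-set controls, and 51.1 and 28.4 in shPogz. The shAdnp libraries were below both of their controls, while the Pogz-set libraries were interleaved. The log2 differences were -0.42 (SE 0.32) and -0.20 (SE 0.32), within 1.5 times their standard errors. The one in shPogz turned to 0.16 without shPogz replicate 2 and to 0.24 without Pogz-set control replicate 2. Htr5a, a Gi/o-coupled receptor, was the steadiest, with 33.8 and 32.6 CPM in the Adnp-set controls, 35.2 and 35.3 in shAdnp, 29.9 and 30.4 for the Pogz-set controls, and 30.5 and 24.6 in shPogz. Htr2c, a Gq/11-coupled receptor on the X chromosome, was chosen for mention after its values were seen. It stood at 15.7 and 15.2 CPM in the Adnp-set controls, 13.2 and 11.7 in shAdnp, 19.2 and 17.5 for the Pogz-set controls, and 16.8 and 14.1 in shPogz. Both knockdown groups lay below their own controls, by -0.32 (SE 0.14) and -0.25 (SE 0.14) on the log2 scale, although both shPogz libraries stood above both shAdnp libraries. The other 8 tested serotonin receptor genes had log2 differences from -1.15 (Htr1d) to 0.47 (Htr7) in shAdnp and from -0.64 (Htr1d) to 0.21 (Htr5b) in shPogz. Htr2b shares exon sequence with Psmd1 on the opposite strand, so its counts are uncertain where the counting did not use strand.

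Of the dopamine receptor genes, Drd1a had libraries that stood far apart. It encodes the Gs-coupled D1 receptor, which is expressed by deep-layer pyramidal neurons in cortex and by medium spiny neurons in the striatum. Drd1a stood at 28.6 and 32.4 CPM in the Adnp-set controls, 34.3 and 11.5 in shAdnp, 23.9 and 26.2 for the Pogz-set controls, and 29.7 and 43.7 in shPogz. The shAdnp replicates stood on opposite sides of their controls, 1 the highest and the other the lowest library of the set. Both shPogz libraries were above both controls. The log2 difference was -0.41 (SE 0.51) in shAdnp and 0.55 (SE 0.51) in shPogz, with adjusted p-values of 0.884 and 0.770 in edgeR. Without shAdnp replicate 2 the first was 0.18, on the other side of 0.

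Drd5, the second Gs-coupled dopamine receptor, stood at 7.39 and 7.61 CPM in the Adnp-set controls, 6.28 and 4.12 in shAdnp, 3.47 and 6.04 for the Pogz-set controls, and 5.19 and 3.25 in shPogz. The shAdnp libraries were below their controls, with replicate 1 also above both Pogz-set controls and replicate 2 between them. Drd4, a Gi/o-coupled receptor, rested on 4 to 22 counts a library. It had 7 and 5 counts in the Adnp-set controls, 5 and 20 in shAdnp, 12 and 22 for the Pogz-set controls, and 4 and 4 in shPogz. The libraries above 0.3 CPM were shAdnp replicate 2 and both Pogz-set controls. The log2 difference was 1.18 (SE 0.82) in shAdnp, or -0.14 without shAdnp replicate 2, and -1.84 (SE 0.86) in shPogz, and the difference of these responses was -3.02 (SE 1.19), with an unadjusted p of 0.0302 and an adjusted p of 0.978 in edgeR. The unadjusted p of that difference passed 0.05 in 2 of the 8 fits with 1 library left out.

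The adrenergic receptor genes stood mostly on opposite sides of 0 in the 2 sets. Of the 9, 6 were above 0 in shAdnp (median log2 difference 0.14) and 8 were below 0 in shPogz (median -0.22, 5 of 9 without Pogz-set control replicate 1), but 0 passed an unadjusted p of 0.05 in either set. Adra1d, a Gq/11-coupled alpha-1 receptor, stood at 27.2 and 31.6 CPM in the Adnp-set controls, 26.3 and 42.6 in shAdnp, 27.7 and 25.2 for the Pogz-set controls, and 25.3 and 20.6 in shPogz. The high value came from shAdnp replicate 2 and the low one from shPogz replicate 2. Adra1b, of the same class, stood at 26.5 and 22.5 CPM in the Adnp-set controls, 25.0 and 29.2 in shAdnp, 19.9 and 21.2 for the Pogz-set controls, and 20.4 and 13.5 in shPogz. Adrb1, the main Gs-coupled beta receptor of cortical neurons, stood at 21.0 and 22.0 CPM in the Adnp-set controls, 24.4 and 29.7 in shAdnp, 23.6 and 16.8 for the Pogz-set controls, and 20.5 and 14.1 in shPogz. In all of these 3 genes shAdnp replicate 2 was the highest and shPogz replicate 2 the lowest of the 8 libraries. Of the alpha-2 receptor genes, which are Gi/o-coupled, Adra2a, the target of guanfacine, stood between 4.32 and 6.24 CPM in all libraries.

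The muscarinic receptor genes were the only family with all tested members below 0 in shPogz (5 of 5, median log2 difference -0.33). Without Pogz-set control replicate 1 it was 3 of 5, and without shPogz replicate 1 it was 4 of 5. In shAdnp 2 of the 5 were below 0. Chrm3 (chromosome 13, 9875486 to 10360847, minus strand) stood at 66.6 and 66.7 CPM in the Adnp-set controls, 67.0 and 84.3 in shAdnp, 69.5 and 63.9 for the Pogz-set controls, and 58.7 and 43.4 in shPogz. The 4 control libraries lay within a narrow band, with both shPogz libraries below it and shAdnp replicate 2 above it. The log2 difference was -0.38 (SE 0.16, unadjusted p = 0.0379, adjusted p = 0.667 in edgeR) in shPogz and 0.18 (SE 0.16, adjusted p = 0.826) in shAdnp. The difference of the responses was -0.57 (SE 0.22, unadjusted p = 0.0314, adjusted p = 0.978 in edgeR). With each library left out in turn, the log2 difference in shPogz ran from -0.58 to -0.18. Its unadjusted p was no longer under 0.05 without shPogz replicate 2, either Pogz-set control or either Adnp-set control. The difference of the responses ran from -0.76 to -0.36. Its unadjusted p was lost without shAdnp replicate 2, shPogz replicate 2, Pogz-set control replicate 1 or either Adnp-set control.

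Chrm1 stood at 168 and 155 CPM in the Adnp-set controls, 131 and 172 in shAdnp, 180 and 160 for the Pogz-set controls, and 155 and 115 in shPogz. Both shPogz libraries were below both of their controls, with a log2 difference of -0.33 (SE 0.17, unadjusted p = 0.0805, adjusted p = 0.667 in edgeR). The Gi/o-coupled Chrm4 stood at 30.9 and 45.4 CPM in the Adnp-set controls, 45.5 and 43.7 in shAdnp, 47.0 and 37.8 for the Pogz-set controls, and 42.3 and 35.2 in shPogz. Its groups overlap in both sets. Chrm2, the presynaptic Gi/o-coupled receptor, stood between 9.11 and 14.0 CPM, and Chrm5 between 0.0524 and 0.330 CPM.

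The nicotinic subunit genes held 1 steady member and several uneven ones. Chrnb2, the beta subunit of most brain nicotinic receptors, stood at 77.6 and 78.6 CPM in the Adnp-set controls, 73.3 and 67.0 in shAdnp, 72.5 and 75.0 for the Pogz-set controls, and 76.1 and 72.1 in shPogz. Its log2 differences were -0.16 (SE 0.10) and 0.01 (SE 0.10), the smallest standard errors of the 41 genes. Chrnb2 shares exon sequence with Adar on the opposite strand, and its counts are uncertain where the counting did not use strand. Chrna4 stood at 49.7 and 43.9 CPM in the Adnp-set controls, 44.3 and 33.6 in shAdnp, 49.5 and 44.3 for the Pogz-set controls, and 42.3 and 32.3 in shPogz. The second replicate was the lowest of its set in both knockdown groups, and the log2 differences were -0.26 (SE 0.17) and -0.33 (SE 0.17).

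Chrna7, which forms the alpha-bungarotoxin-binding receptor, stood at 24.0 and 24.9 CPM in the Adnp-set controls, 22.1 and 23.1 in shAdnp, 18.9 and 23.3 for the Pogz-set controls, and 18.9 and 9.95 in shPogz. The low value is that of shPogz replicate 2 alone, and the log2 difference of -0.55 (SE 0.26) in shPogz had an unadjusted p of 0.0703 and an adjusted p of 0.667 in edgeR. With shPogz replicate 2 as the only shPogz library, Chrna7 was called, at -1.05 (SE 0.18, adjusted p = 0.0400 in edgeR), on the assumption that the lone library varies like those of the other groups. Chrnb1, the beta subunit of the muscle receptor, stood at 2.08 and 1.38 CPM in the Adnp-set controls, 1.72 and 2.12 in shAdnp, 2.44 and 2.67 for the Pogz-set controls, and 1.57 and 1.57 in shPogz. Both shPogz libraries were below both Pogz-set controls (log2 difference -0.71, SE 0.31, unadjusted p = 0.0487, adjusted p = 0.667 in edgeR) and within the range of the Adnp-set controls. That unadjusted p was no longer under 0.05 without any single library of the Pogz set. The log2 difference ran from -0.75 to -0.60 over the libraries left out. Markers of skeletal muscle summed to 30.1 to 50.6 CPM over the libraries. Chrna5, the accessory subunit of deep-layer neurons, was chosen after its values were seen. It stood at 7.31 and 9.66 CPM in the Adnp-set controls, 10.6 and 2.86 in shAdnp, 7.25 and 8.31 for the Pogz-set controls, and 7.72 and 8.22 in shPogz, so that 7 libraries lay close together and shAdnp replicate 2 stood apart. The other 6 tested subunit genes had log2 differences from -0.92 (Chrne) to 0.28 (Chrnb3) in shAdnp and from -0.79 (Chrnb3) to 0.58 (Chrne) in shPogz.

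Summed over each family, the levels differed between the 2 libraries of a group as well as between groups. The muscarinic sum was 278 and 280.1 CPM in the Adnp-set controls, 258 and 309 in shAdnp, 309.7 and 273 for the Pogz-set controls, and 266 and 206 in shPogz. The adrenergic sum was 136 and 137 CPM in the Adnp-set controls, 138 and 164 in shAdnp, 132 and 115 for the Pogz-set controls, and 121 and 88.0 in shPogz. The dopamine sum, carried by Drd1a, was 36.2 and 40.1 CPM in the Adnp-set controls, 40.7 and 16.0 in shAdnp, 27.8 and 32.7 for the Pogz-set controls, and 35.1 and 47.1 in shPogz. In the same order of groups, the serotonin sum was 182 and 174, 148 and 159, 142 and 167, and 154 and 115 CPM. The nicotinic sum was 166 and 163, 157 and 134, 158 and 159, and 152 and 129 CPM. For nicotinic receptors, and for all 48 genes summed, each knockdown library was below both of its controls in both sets. These sums were not tested. For serotonin, adrenergic, muscarinic and nicotinic receptors, shPogz replicate 2 was the lowest of all 8 libraries, while for dopamine receptors it was the highest.

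**Figure D3:**
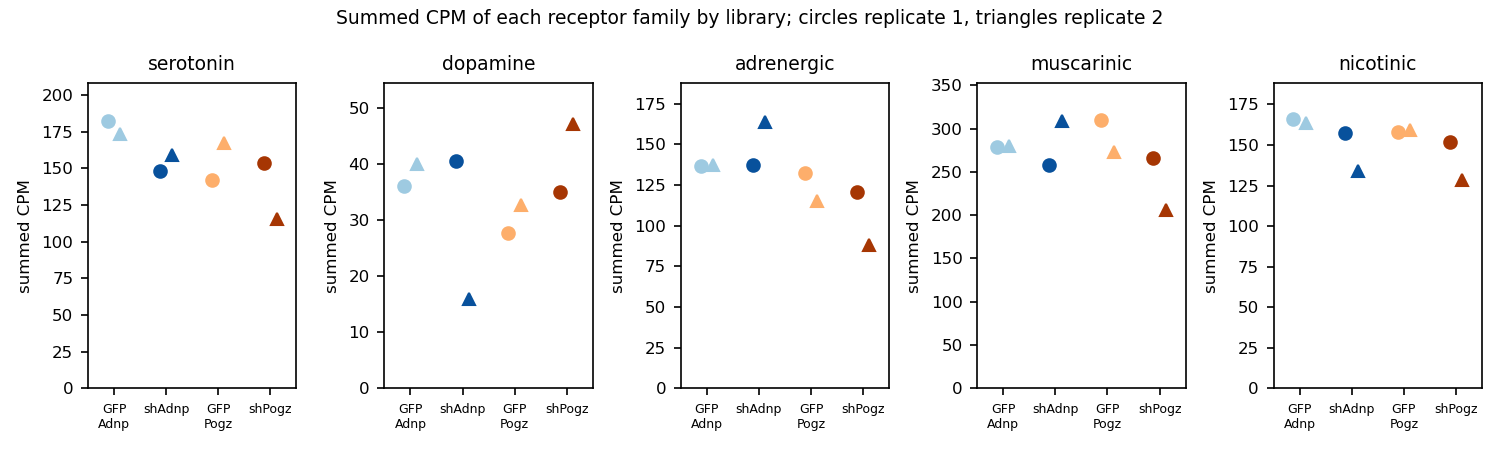
Summed CPM of each receptor family in each library, with circles for replicate 1 and triangles for replicate 2, on axes that start at 0. The brown triangle of shPogz replicate 2 is the lowest point for 4 families and the highest for dopamine receptors, where shAdnp replicate 2 is the lowest at 16.0 CPM.

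The replicates of the knockdown groups did not share their distances from the controls equally. In shPogz replicate 2, 33 of the 41 receptor genes lay below the mean of their own controls (80.5%), with a median log2 ratio of -0.38, against 53.8% and -0.03 over all genes. In shPogz replicate 1, 27 of the 41 lay below (65.9%), with a median of -0.05, against 52.7% and -0.01 over all genes. The 9 Gq/11-coupled genes were below in 8 cases in replicate 1 (median -0.11) and in all 9 in replicate 2 (median -0.56). The low values of receptor genes in shPogz therefore came mostly from 1 library. With shPogz replicate 1 as the only shPogz library, the median log2 difference over the 42 receptor genes then tested (Chrna10 passing the filter too) was -0.05 and 0 of them had an unadjusted p under 0.05, where 1.2% of all genes did. With shPogz replicate 2 as the only one, the median was -0.37 and 8 of the 42 (19.0%) did, where 16.3% of all genes did, a share near the background. That count was also 0 without Pogz-set control replicate 1 (1.82% of all genes), and 1 without Pogz-set control replicate 2 (8.57%) or Adnp-set control replicate 1 (5.73%).

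In shAdnp the replicates disagreed by more than 2-fold for 9 of the 41 receptor genes (22.0%), against 8.11% of all genes. These were Adrb3, Chrm5, Chrna5, Chrne, Drd1a, Drd4, Htr1b, Htr1d and Htr2b, of which Chrm5, Chrne, Drd4 and Htr1d are genes of few counts. The same share was 4.88% of receptor genes in the Adnp-set controls, 7.32% in the Pogz-set controls and 4.88% in shPogz, where 7.30%, 8.04% and 8.98% of all genes did so. With shAdnp replicate 2 as the only shAdnp library, 11 of the 42 receptor genes tested (26.2%) reached an unadjusted p under 0.05 in edgeR, where 9.1% of all genes did. They included Chrna5 (-1.55, SE 0.26), Drd1a (-1.39, SE 0.24), Htr1b (-1.28, SE 0.39), Htr1f (-1.16, SE 0.24) and, on the high side, the Gs-coupled receptor Htr7 (0.81, SE 0.19), with adjusted p-values of 0.228 or more. With shAdnp replicate 1 as the only shAdnp library, 1 did, Htr1f (-0.59, SE 0.23), where 6.81% of all genes did. The count was 3 without Adnp-set control replicate 1 (3.31% of all genes), shPogz replicate 1 (9.24%) or shPogz replicate 2 (9.34%), and 2 without Adnp-set control replicate 2 (8.46%).

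**Figure D4:**
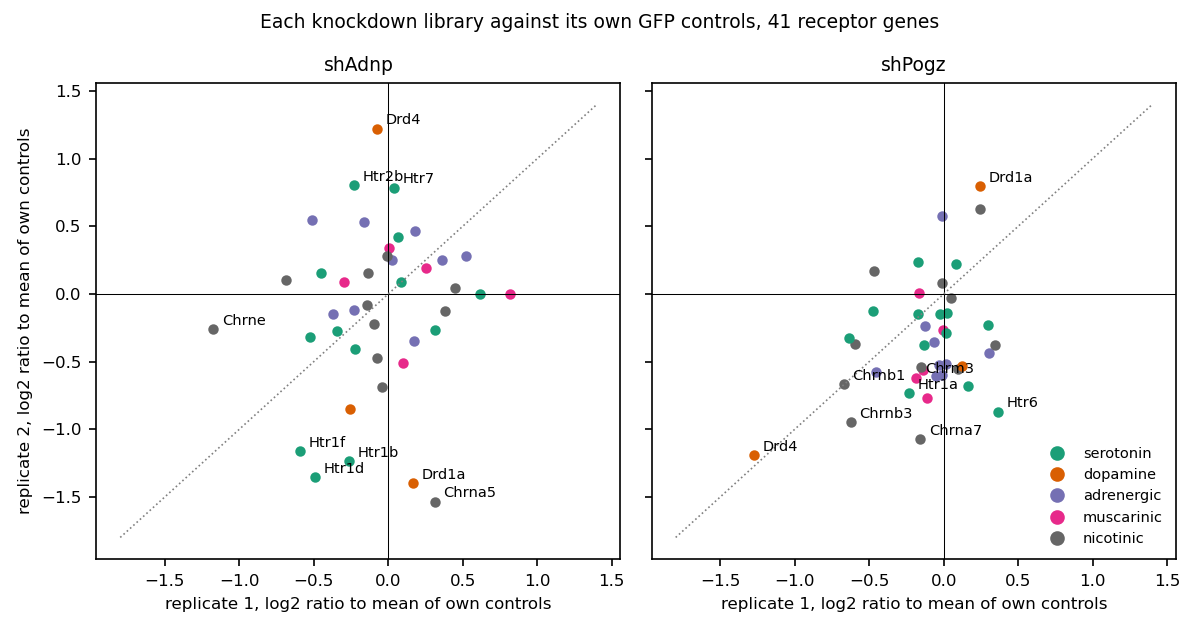
Log2 ratio of each knockdown library to the mean of its own GFP controls for the 41 receptor genes, replicate 1 on the horizontal and replicate 2 on the vertical axis, coloured by family, with a dotted line where both are equal. In shAdnp, Drd1a and Chrna5 lie near or above 0 in replicate 1 and below -1.3 in replicate 2, and in shPogz most points lie below the dotted line.

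Marker sums of cortical layers and of several other cell types also differed between these libraries. Endothelial markers summed to 249 to 302 CPM over the libraries, and oligodendrocyte precursor markers to 136 to 158 CPM. Deep-layer markers (11 genes, among them Foxp2, Tle4 and Syt6) summed to 539.7 and 562 CPM in the Adnp-set controls, 539.7 and 319.7 in shAdnp, 444 and 489 for the Pogz-set controls, and 487 and 475 in shPogz. Upper-layer markers (7 genes) summed to 606 and 594, 498 and 876, 607 and 667, and 628 and 461 CPM in the same order. The library with low Drd1a and Chrna5, shAdnp replicate 2, thus had the lowest deep-layer sum and the highest upper-layer sum. Excitatory neuron markers (6 genes) ranged from 2441 to 3219.6 CPM in 7 libraries and stood at 1804 CPM in shPogz replicate 2. Striatal medium spiny neuron markers (14 genes) ranged from 490.0 to 579.9 CPM in 7 libraries and stood at 647 CPM in shPogz replicate 2, where Drd1a was highest. In shPogz 13 of the 14 striatal markers had a log2 difference above 0 (median 0.58), where 53.6% of all tested genes were below 0. At an unadjusted p under 0.05 in edgeR, 5 of the 14 were higher (35.7%), where 4.05% of all genes were. There 0 were lower, where 2.65% of all genes were. Of the 14, 0 had an adjusted p under 0.05 in edgeR, where 0.0% of all genes did.

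Glial markers also varied. Microglial markers (9 genes) summed to 460.4 and 594 CPM in the Adnp-set controls, 1417 and 958 in shAdnp, 787 and 817 for the Pogz-set controls, and 892 and 1403 in shPogz. Oligodendrocyte markers (7 genes) ranged from 1939 CPM in shAdnp replicate 2 to 4194 CPM in shPogz replicate 2. Astrocyte markers (7 genes) went the other way in that library, from 5523 CPM in Adnp-set control replicate 1 down to 3517 CPM in shPogz replicate 2. Markers of cholinergic neurons summed to 2.13 to 4.14 CPM, with Lhx8 at 0 in at least 1 library, and those of choroid plexus to 2.68 to 9.49 CPM, with Kcne2 and Otx2 at 0 in at least 1. The part of cell composition or dissection in the receptor values was not tested.

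**Figure D5:**
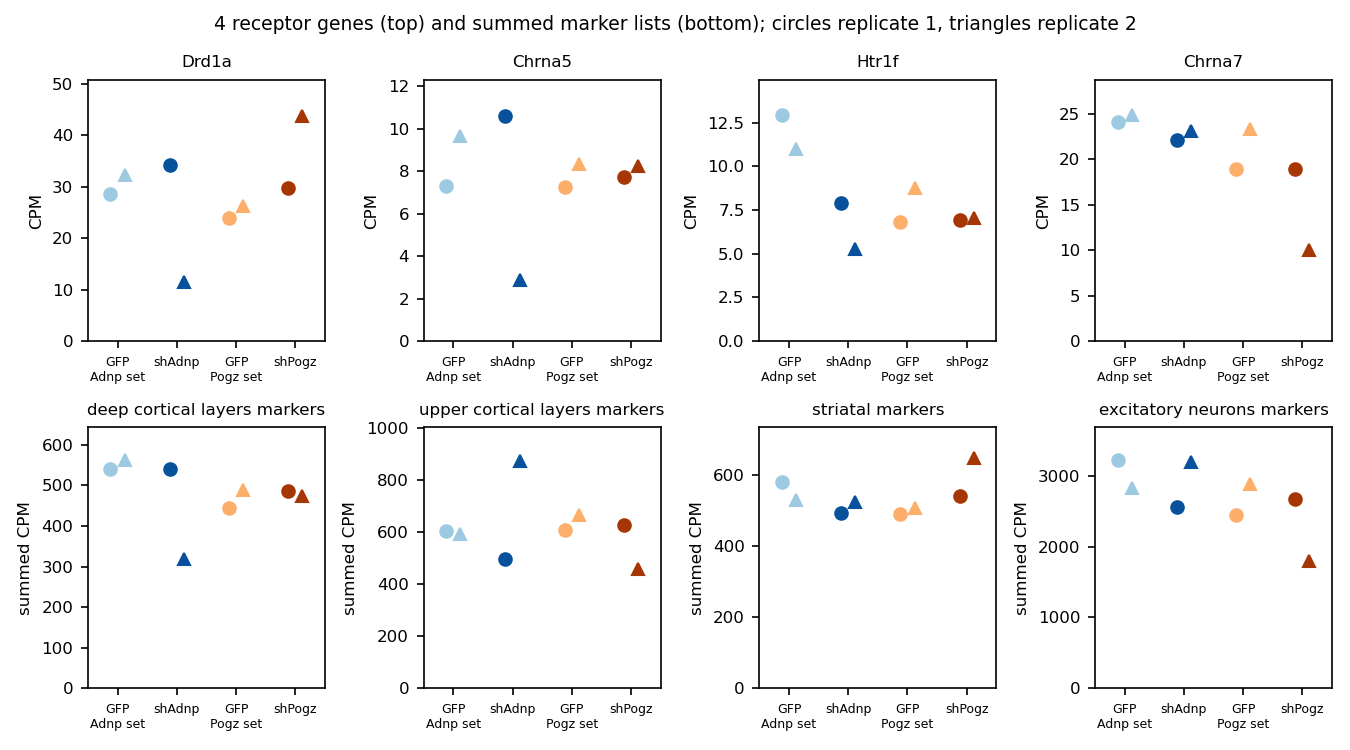
CPM of Drd1a, Chrna5, Htr1f and Chrna7 (top row) and summed CPM of deep-layer, upper-layer, striatal and excitatory neuron markers (bottom row) in each library, on axes that start at 0. Drd1a and Chrna5 are low where the deep-layer sum is low (319.7 CPM, shAdnp replicate 2), and Chrna7 is low where the excitatory neuron sum is low (1804 CPM, shPogz replicate 2). The upper-layer sum, and the interneuron and astrocyte sums not drawn here, were also lowest in shPogz replicate 2.

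The remaining comparisons gave the same picture of few single differences. Between the 2 pairs of controls, edgeR called 0 of the 41 receptor genes, where 0.00574% of all genes were called, and 4 had an unadjusted p under 0.05 (Chrnb3, Drd4, Htr1f and Htr2b, 9.76% of the 41), where 7.35% of all genes did. These 4 differences, which no hairpin separates, ran from -0.61 for Htr1f to 1.87 for Drd4 on the log2 scale. For the difference between the shPogz and shAdnp responses, 0 were called, where 0.0% of all genes were, and 2 had an unadjusted p under 0.05 (Chrm3 and Drd4, 4.88% of the 41), where 3.51% of all genes did. Averaged over both sets, 0 were called, where 0.0% of all genes were. There 0 receptor genes were higher at an unadjusted p under 0.05, where 8.84% of all genes were, and 4 were lower (Chrna4, Htr1a, Htr1f and Htr2c, 9.76% of the 41), where 3.62% of all genes were. The average log2 differences were -0.30 (SE 0.11) for Chrna4, -0.38 (SE 0.12) for Htr1a, -0.52 (SE 0.19) for Htr1f and -0.28 (SE 0.10) for Htr2c, with adjusted p-values of 0.326, 0.232, 0.302 and 0.274 in edgeR. DESeq2 and limma-voom called 0 receptor genes in these 3 comparisons.

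The genes that make, move and break down the transmitters, and those that carry the receptor signal, were read from 7 lists. In both sets 0 genes of these lists had an adjusted p under 0.05 in edgeR. DESeq2 called 4 of them in shAdnp (Adcy7, Plcb2, Prkcd and Rgs10, adjusted p = 0.000553, 0.0189, 0.00125 and 0.0109) and 0 in shPogz. The list counts that follow, at an unadjusted p under 0.05, are to be read against 6.67% of all tested genes higher and 1.69% lower in shAdnp, and 4.05% higher and 2.65% lower in shPogz. Among the 15 tested genes of monoamine synthesis, transport and breakdown, 1 was higher and 1 lower at an unadjusted p under 0.05 in shAdnp, and 0 in shPogz. Maob, an enzyme that degrades monoamines, stood at 28.2 and 28.3 CPM in the Adnp-set controls against 18.4 and 22.9 in shAdnp. The Pogz-set controls had 27.9 and 27.0 CPM of it against 28.8 and 30.6 in shPogz. Its log2 difference was -0.46 (SE 0.13, unadjusted p = 0.00563, adjusted p = 0.334 in edgeR) in shAdnp and 0.12 (SE 0.13) in shPogz. Of the 7 genes of acetylcholine synthesis, transport and breakdown, 0 reached an unadjusted p of 0.05 in either set. The cholinergic marker enzyme Chat stood between 0.298 and 0.576 CPM in all libraries.

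Among 9 tested genes of nicotinic receptor assembly and prototoxins, small proteins that bind nicotinic receptors, shPogz had 1 higher and 1 lower at an unadjusted p under 0.05. Lynx1, a prototoxin that restrains nicotinic signalling, stood at 568 and 523 CPM in the Pogz-set controls and at 480.5 and 399.8 in shPogz (log2 difference -0.31, SE 0.12, adjusted p = 0.667 in edgeR). Ly6e, a relative also known from immune cells, stood at 149 and 164 CPM in the controls and at 191 and 297 in shPogz (0.64, SE 0.20, adjusted p = 0.667 in edgeR). With shPogz replicate 2 as the only shPogz library, Ly6e was called (0.96, adjusted p = 0.0233 in edgeR). In shAdnp, 1 of the 9 was higher and 0 lower. Of the 17 G protein subunit genes, 1 was higher (Gnai2, 0.32) and 1 lower (Gnai1, -0.28) at an unadjusted p under 0.05 in shAdnp, and 0 in shPogz.

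Of the 9 adenylyl cyclase genes, 1 was higher in shAdnp at an unadjusted p under 0.05 and 1 lower in shPogz. Adcy7 stood at 16.8 and 18.8 CPM in the Adnp-set controls, 32.4 and 31.3 in shAdnp, 28.2 and 31.0 for the Pogz-set controls, and 31.2 and 42.6 in shPogz. Its log2 difference in shAdnp was 0.84 (SE 0.15, adjusted p = 0.295 in edgeR), and the Pogz-set controls stood near the shAdnp level. Adcy8 stood at 43.2 and 33.8 CPM in the Pogz-set controls and at 30.9 and 27.4 in shPogz (-0.40, SE 0.15, adjusted p = 0.667 in edgeR). Of the 11 phospholipase C and protein kinase C genes, 3 were higher in shAdnp (27.3% of the 11) and 1 in shPogz (9.09%), with the smallest p-values for Plcb2 (0.91, SE 0.23, and 0.68, SE 0.23), the phospholipase of blood cells, with adjusted p-values of 0.303 and 0.667 in edgeR. Of the 15 tested receptor kinase, arrestin and RGS genes, 1 was higher in shAdnp (Rgs10, 0.78, SE 0.20) and 0 in shPogz. Adcy7, Plcb2 and Rgs10 are known from microglia, and the microglial marker sums given above were higher in shAdnp than in its controls as well. The part of microglia in these values was not tested.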

How the data were processed

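Gene-level RNA sequencing counts of 8 mouse prefrontal cortex libraries were used, in 4 groups of 2 that the labels call biological duplicates. Per the labels' protocols, total RNA was depleted of ribosomal RNA and made into stranded libraries. The deposited values are raw counts per gene symbol that the authors made with STAR and featureCounts on mm10, per the submitters' processing notes, which also name DESeq2, while the labels' protocols name Cutadapt and TopHat2. Tool versions, how strand was set and how multiply matching reads were counted are not given in those sources. Of the counts of 1 to 10, 72.1% to 74.5% were even in each library, so no counting interval is given for low counts.

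Each library held 25 identifiers turned into calendar serial numbers (0.306% to 0.337% of counts) and 2 blank ones, and these were left out. In R 4.3.3 with edgeR 4.0.16, genes passing filterByExpr by group (minimum count 10) numbered 17415. TMM scaling was applied and 1 quasi-likelihood model was fitted with 1 mean per group (4 residual degrees of freedom, common biological coefficient of variation 0.171). The average over both sets came from a model of set and knockdown. Adjustment was by Benjamini-Hochberg over all tested genes. The p-values set each difference against a spread estimated between these libraries, pooled over the 4 groups and shared in part across genes. In a fit that leaves 1 library in a group, that library adds nothing to this estimate. No 2 libraries were alike within counting noise: the chi-square divided by its degrees of freedom lay between 15.0 and 394 for all pairs, and each was kept as a separate replicate. CPM are TMM-scaled, exon lengths and overlaps come from GENCODE M21 (GRCm38), and library ratios add 0.1 CPM.

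The receptor genes, the families, the 7 signalling lists and the 15 cell type lists were chosen with earlier results of these data known. Values in every library are given for receptor genes at an unadjusted p under 0.05 in shAdnp, in shPogz or in the difference of the responses, and for the 3 highest per length in each family. Of each signalling list at most the 2 genes of smallest p in a comparison are named, Chat being an exception. The alternatives were DESeq2 1.42.0, limma-voom (limma 3.58.1), RLE scaling, 2 other low count filters, only the libraries of a set, a replicate block and each library left out. The test was checked on simulated counts with changes planted in shPogz. That check covers neither differences as small as most of those given here nor a single library that stands apart.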

Additional observations from a re-analysis of the deposited data

Results flagged for a closer look

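For 2 receptor genes the shPogz and shAdnp responses differed at an unadjusted p under 0.05 in edgeR's test of the difference itself, and both are listed here for that reason. The difference was -0.57 for Chrm3, which stood below all 4 controls in both shPogz libraries, among them in shAdnp replicate 1 and above them in shAdnp replicate 2. Its unadjusted p stayed under 0.05 in 3 of the 8 fits with 1 library left out, and was lost without shAdnp replicate 2, shPogz replicate 2, Pogz-set control replicate 1 or either Adnp-set control. The difference was -3.02 for Drd4, which rests on 4 to 22 counts a library and kept its unadjusted p in 2 of those 8 fits. Neither passed the adjustment over all 17415 tested genes (adjusted p = 0.978 in edgeR for each). Of the 41 tested receptor genes, 4.88% were listed in this way, against 3.51% of all tested genes.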

How the results depend on the processing

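With 2 libraries a group, no receptor gene was called at an adjusted p under 0.05 in any comparison or alternative, except Htr1f in shAdnp with DESeq2 (1 gene, log2 difference -0.853) and Chrna7 in shPogz without shPogz replicate 1 (the count ranged from 0 to 1 over the libraries left out). The count at an unadjusted p under 0.05 in shAdnp, 1 in the analysis reported, was 3 with limma-voom, where 9.42% of all genes were. It ranged from 1 to 11 over the libraries left out. In shPogz, 3 as reported, it ranged from 0 to 8 over the libraries left out. For the difference of the responses, 2 as reported, it was 1 with DESeq2, with limma-voom and with the 1 CPM filter, and ranged from 0 to 10 over the libraries left out: 10 without shAdnp replicate 1, 5 without shPogz replicate 1 or Pogz-set control replicate 2, and 0 without shAdnp replicate 2, shPogz replicate 2 or Pogz-set control replicate 1. Between the controls it ranged from 0 (without Pogz-set control replicate 1) to 4, with 2 without either Adnp-set control. For the average it ranged from 3 to 8, the 8 being without shPogz replicate 1. The replicate block gave 2 in shAdnp and 4 for the difference, and changed no other call of a receptor gene, while the signalling gene Adcy7 was called with it in shAdnp (0.8437, adjusted p = 0.0389). For the difference, the controls, the average and the block, these alternative counts have no share of all tested genes beside them. In shAdnp and shPogz that share moved between fits, as given above. Such counts can therefore not be told from a shift over all genes. The deviations of same-numbered libraries correlated at -0.0085 in the Adnp set and 0.0473 in the Pogz set, so no strong shared deviation was seen. With 2 libraries a group this cannot tell whether same-numbered samples were handled together, and a number is used here only as a name. Of the 51 log2 differences followed, 5 changed sign, each with 1 library left out: Drd1a in shAdnp (-1.389 to 0.1805), Drd4 in shAdnp (-0.1447 to 1.88), Htr1d in shAdnp (-1.962 to 0.2396), Htr2a in shPogz (-0.651 to 0.2445) and Htr5b in shPogz (-0.05978 to 0.54). An adjusted p under 0.05 was reached in 7 cases, by Htr1f, Adcy7, Plcb2 and Rgs10 in shAdnp with DESeq2, Adcy7 with the block, and Chrna7 and Ly6e in shPogz without shPogz replicate 1. Prkcd, which was not among the 51 differences followed, was also called in shAdnp with DESeq2. The median over receptor genes in shAdnp, near 0, changed sign with no low count filter (0.0078) and over the libraries left out (-0.086 to 0.0085). In shPogz it ranged from -0.37 to -0.054 over the libraries left out. The cause of these changes was not tested. Genes of few counts, such as Drd4, Htr1d and Chrm5, have standard errors of 0.7 or more, and differences of that size could not be detected at this depth.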
